A study of Mus musculus with 6 samples.

Results

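The ETS transcription factors described here are 10 genes: Ets1, Ets2, Elk1, Elk3, Elk4, Etv1, Etv4, Etv5, Etv6 and Gabpa. They were taken by name, through their Ensembl numbers, from tables that hold 51826 genes, and all 10 passed the filter on low counts that left 14652 genes for testing. Messenger RNA was sequenced from 6 cultures of mouse embryonic fibroblasts, primary connective-tissue cells with a C57BL/6 background. Wild-type cultures (Lztr1 +/+) carry the numbers 10, 12 and 16, and heterozygous cultures (Lztr1 +/-) the numbers 11, 15 and 18. All were grown in DMEM with glutamine and labelled with the same passage range, P2-5. The labels state neither how the Lztr1 allele was made nor which embryo or litter gave each culture, so every p-value refers to culture-to-culture spread, some of which may be technical. The comparison asks whether transcripts of the ETS factors differ between heterozygous and wild-type cultures.

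ETS factors share a DNA-binding domain that recognises a GGAA core, and several of them receive signals from ERK, the last kinase of the RAS pathway. ELK1, ELK3 and ELK4 are ternary complex factors (TCFs), which sit with serum response factor on immediate-early promoters and are phosphorylated by ERK. ETS1 and ETS2 are activated by ERK phosphorylation beside their pointed domain. ETV1, ETV4 and ETV5 form the PEA3 subfamily, whose genes are themselves induced by growth factor signalling. ETV6 is a repressor, and GABPA pairs with GABPB to drive genes of mitochondria and translation. ERK acts on most of these proteins after translation, which transcript levels do not record. Lztr1 encodes an adaptor of the CUL3 ubiquitin ligase for RAS-family proteins.

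Promoter sequence was available from RefSeq (build GRCm38.p6, a window of 300 bases around each transcript start) for 8 of the 10 genes, all but Ets1 and Etv4, in 12 windows. A GGAA on either strand was present in 11 of these windows, against 96.0% of all 32851 such windows. The longer form CGGAAG occurred in 3 windows, of Elk4 and Gabpa, against 16.9% of all windows, and CCGGAAGT, which contains the shorter forms, in 1 window of Elk4, against 3.89%. The CArG box bound by serum response factor was matched in 0 of the 12 windows and in 1.63% of all. Stretches are shown for Elk4 with the CCGGAAGT match, and for Etv6, Gabpa and Etv1, none of which was called between the genotypes below. These 3 were picked for an unadjusted edgeR p under 0.05 (Etv6) or groups apart in CPM (Gabpa) or TPM (Etv1). All are on the plus strand, each GGAA on either strand is in capitals, and they lie at chr1:132007520-132007599 (Elk4), chr16:84835010-84835039 (Gabpa), chr12:38779992-38780081 (Etv1) and chr6:134035590-134035649 (Etv6).
Elk4: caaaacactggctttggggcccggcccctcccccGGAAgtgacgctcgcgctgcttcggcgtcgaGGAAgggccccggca
Gabpa: ggaGGAAgtggagggtaagtgcTTCCgggt
Etv1: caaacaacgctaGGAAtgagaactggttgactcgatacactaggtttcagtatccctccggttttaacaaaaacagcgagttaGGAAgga
Etv6: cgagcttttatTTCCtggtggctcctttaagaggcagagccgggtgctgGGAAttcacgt
Each stretch lies upstream of a RefSeq transcript start of its gene. The Etv1 stretch nevertheless lies inside the GENCODE span of Etv1, which starts at chr12:38779380 on the plus strand. In GENCODE the Gabpa stretch also overlaps the untranslated first exon of a Gabpa transcript with an earlier start, and exons of Atp5j transcripts on the opposite strand. A match to these letters is a description and not a binding site.

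Library totals ran from 11025286 to 21885101 expected counts, and the listed genes drew between 122 (Etv1, heterozygous culture 18) and 2615 (Elk3, heterozygous culture 11) of them. Lztr1 measured 83.2 to 94.1 CPM (counts relative to library size, scaled with TMM factors) in wild-type and 43.8 to 45.9 CPM in heterozygous cultures, matching the label in all 6. Fibroblast markers were high everywhere, with 10 of 10 genes detected and a summed level of 25085 to 31412 CPM in wild-type and 25058 to 27793 CPM in heterozygous cultures. By their record numbers, cultures 10, 12, 15 and 18 were registered together and 11 and 16 later. The culture numbers also form 2 runs, 10 to 12 and 15 to 18. Differences are given within these sets too, which the labels do not call batches. Y-linked genes were high in cultures 12, 15 and 18 and near 0 in 10, 11 and 16, which also differs between the genotypes. In such bulk cultures, fewer cells of a type and less RNA per cell cannot be told apart.

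All 10 genes were expressed, and their order was held closely from culture to culture on the deposited TPM scale (transcript abundance, scaled for length and library size). Elk3 was the most abundant at 64.6 ± 3.27 TPM (SD over 6 cultures), at the 83.1 percentile of tested genes. Etv4 followed at 45.6 ± 6.71 and Ets1 at 37.1 ± 5.64 TPM. Each gene in this leading group was above the next in all 6 cultures, although the ranges of Etv4 and Ets1 overlapped. Gabpa (29.2 ± 2.12 TPM), Ets2 (28.6 ± 1.49) and Etv6 (26.1 ± 2.68) formed a middle group. Gabpa exceeded Ets2 in 3 of 6 cultures, with a gap of 0.617 TPM that was smaller than either SD, and Ets2 exceeded Etv6 in 5. Etv5 (17.3 ± 1.43 TPM), Elk4 (15.4 ± 2.31) and Elk1 (14.5 ± 1.32) were lower again, and Elk4 and Elk1 also did not differ beyond their spread, with Elk4 higher in 4 of 6. Etv1 was the least abundant at 5.42 ± 0.713 TPM, below Elk1 in every culture and at the 28.5 percentile. Elk3 supplied 20.8% to 24.4% of the summed TPM of the 10 genes in a culture, and Etv1 1.63% to 2.36%.

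**Figure D1:**
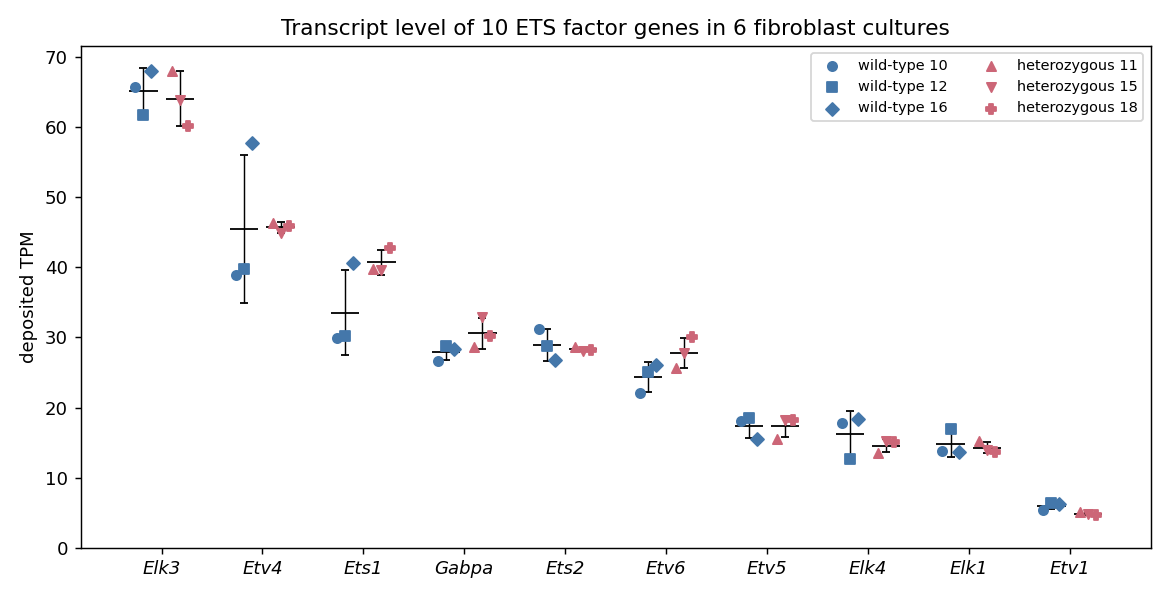
Deposited TPM (vertical axis) of the 10 genes, ordered by their mean, with 1 symbol per culture, blue for wild-type and red for heterozygous, and a bar and whisker for the mean and SD of 3. Wild-type culture 16 stands at 57.7 TPM for Etv4 and 40.6 TPM for Ets1, above wild-type cultures 10 and 12.

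Between the genotypes 0 of the 10 genes passed edgeR's quasi-likelihood test at an adjusted p of 0.05, where 0.00683% of all tested genes did (Lztr1 alone). The lowest adjusted p was 0.378, for Etv6. At an unadjusted p under 0.05 there was 1 of 10, against 12.2% of all tested genes (5.56% higher and 6.65% lower). DESeq2 called 0 of the 7 for which it gave an adjusted p, against 1.92% of all genes it gave one for (1.15% higher), with 2 of 10 at an unadjusted p under 0.05, against 8.94%. The mean was higher in heterozygous cultures for 6 genes and lower for 4, against 49.6% and 50.4% of all tested genes, with a median log2 difference of 0.027 beside -0.0018 over all tested genes. The groups did not overlap in CPM for 1 gene, against 17.7% of all tested genes (7.75% higher, 9.97% lower). In TPM this held for 1 gene, against 16.4% (7.1% higher, 9.29% lower). The 95% intervals reached 0.13 to 0.36 either side of the estimate on the log2 scale, so the precision differed by gene.

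**Figure D2:**
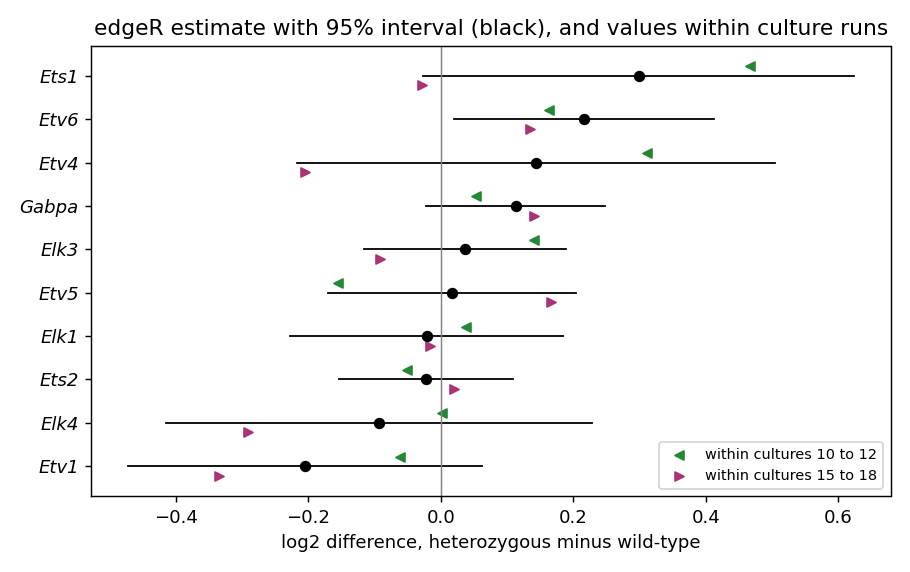
The log2 difference in CPM, heterozygous minus wild-type (horizontal axis), from edgeR with its 95% interval in black, and the differences of mean log2 CPM within cultures 10 to 12 (green) and 15 to 18 (purple). Only the interval of Etv6, from 0.019 to 0.41, lies wholly on one side of 0.

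Ets1, a factor prominent in endothelium and lymphocytes and also made by fibroblasts, had the largest estimated difference of the 10. Its gene lies at chr9:32636221-32757820 on the plus strand (GENCODE, mm10). It measured 84.8, 81.5 and 122 CPM across wild-type cultures 10, 12 and 16, and 115, 117 and 123 CPM in heterozygous cultures 11, 15 and 18. Wild-type culture 16 therefore stood with the heterozygous cultures, far above the other wild-type cultures, and the groups overlapped. By edgeR the log2 difference was 0.30 (SE 0.14, 95% interval -0.026 to 0.62, adjusted p = 0.438). It was 0.47 within cultures 10 to 12 and -0.029 within 15 to 18, and 0.53 within the first registered set against -0.088 in the later pair. Without wild-type culture 16 the log2 difference was 0.51 at an adjusted p of 0.00554, and with the culture run as a further term 0.47 at an adjusted p of 0.0241. Without culture 16, 5.93% of all tested genes were called (3.69% higher), and with the run term 1.93% (1.27% higher). The wild-type cultures left share a run and a registered set.

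Ets2, its close relative, measured 65.3, 61.9 and 61.2 CPM across wild-type cultures 10, 12 and 16 and 61.3, 63.9 and 60.3 CPM in heterozygous cultures 11, 15 and 18. These values interleave, and the ratio of heterozygous to wild-type was 98.5% with a 95% interval of 89.9% to 108%. The log2 ratio of Ets1 to Ets2 in TPM was -0.064, 0.062 and 0.58 in wild-type cultures 10, 12 and 16, and 0.46, 0.48 and 0.59 in heterozygous cultures 11, 15 and 18. The difference of 0.32 had an exact two-sided permutation p of 0.3 (adjusted 0.9 over 6 ratios), where 0.1 is the smallest that 3 against 3 can give. It was 0.19 without wild-type culture 10 and 0.51 without culture 16. The summed TPM of Ets1 and Ets2 was 61.1, 59.0 and 67.3 in wild-type and 68.4, 67.7 and 71.0 in heterozygous cultures. These groups do not overlap, at an unadjusted exact permutation p of 0.1. Wild-type culture 16 (67.3) and heterozygous culture 15 (67.7) were nearly level, and no counting error was computed for the sum. Among single genes, the TPM groups were apart for 16.4% of all tested genes.

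Etv4, a PEA3 factor and a common readout of ERK signalling, showed the same division among wild-type cultures. It lies at chr11:101769742-101785371 on the minus strand. It measured 37.9, 37.7 and 57.8 CPM across wild-type cultures 10, 12 and 16, and 46.9, 50.2 and 49.9 CPM in heterozygous cultures 11, 15 and 18. Culture 16 was the highest of all 6, and the heterozygous cultures lay between it and the other wild-type cultures. The fitted log2 difference was 0.14 (SE 0.16, adjusted p = 0.731 by edgeR). It was 0.31 within cultures 10 to 12 and -0.21 within 15 to 18, and 0.40 in the first registered set against -0.30 in the later pair, so its sign depended on the set. Without wild-type culture 16 it was 0.38 at an adjusted p of 0.0207, and with the run as a further term 0.31 at an adjusted p of 0.0929. Ets1 and Etv4 were the 2 of 10 genes called without culture 16, against 5.93% of all genes tested in that fit (3.69% higher).

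The length that RSEM assigned to Etv4 also differed. Its effective length, the abundance-weighted mean over 12 annotated transcripts of 400 to 2395 bases, was 1606, 1601 and 1563 bases in wild-type cultures 10, 12 and 16. It was 1640, 1776 and 1781 bases in heterozygous cultures 11, 15 and 18, so the groups did not overlap. The mean difference of 143 bases had an exact permutation p of 0.1 (adjusted 0.5 over the 10 genes), and the groups were apart in 12.5% of the 11334 tested genes whose length varied. The range of Etv4's length was 13.1% of its mean, and 44.1% of those genes had a range at least as wide. Because TPM divides by this length, the TPM means of Etv4 were 45.5 ± 10.6 in wild-type and 45.7 ± 0.727 in heterozygous cultures (SD, n = 3 each), nearer to each other than the CPM means of 44.5 ± 11.5 and 49.0 ± 1.84. With effective lengths as an offset in edgeR, the log2 difference of Etv4 was 0.021 in place of 0.14. Elk1 was the other gene whose lengths did not overlap, by 14.8 bases in means of 3318 and 3333, and the 8 remaining genes overlapped.

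**Figure D3:**
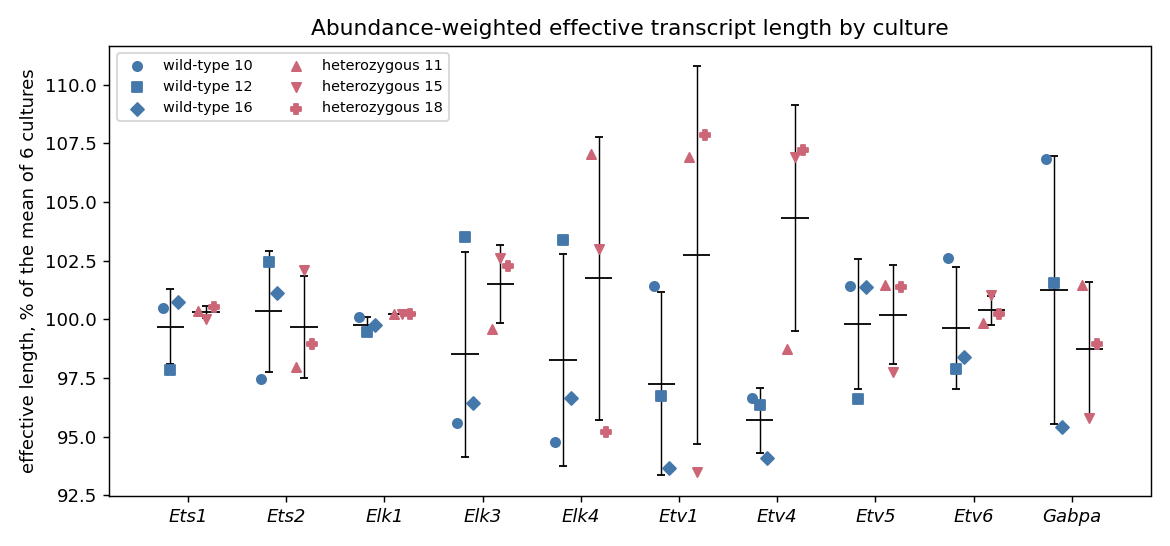
Effective transcript length of the 10 genes in each culture as a percentage of the gene's mean over 6 cultures (vertical axis), with bar and whisker for mean and SD of 3. All 3 heterozygous cultures lie above all 3 wild-type cultures for Etv4, with mean lengths of 1733 and 1590 bases.

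The other PEA3 genes did not share the Etv4 pattern. Etv5 measured 41.3, 39.4 and 37.3 CPM across wild-type cultures 10, 12 and 16, and 36.2, 41.7 and 41.9 CPM in heterozygous cultures 11, 15 and 18. Here culture 16 was the lowest of the wild-type cultures. The log2 difference was 0.017 (95% interval -0.17 to 0.20), and it was -0.16 within cultures 10 to 12 and 0.17 within 15 to 18. Etv5 lies on chromosome 16, 4.86 Mb from Lztr1, with Ets2 and Gabpa farther along the same chromosome at 78.2 and 67.3 Mb. The log2 ratio of Etv4 to Etv5 in TPM had means of 1.32 ± 0.446 (wild-type) and 1.35 ± 0.141 (heterozygous), with 1.84 in culture 16, and did not separate the groups (exact permutation p = 1.0).

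Etv1, the least abundant PEA3 gene, at chr12:38779380-38870484 (plus strand), had the most negative estimate of the 10. It measured 11.8, 12.9 and 13.3 CPM across wild-type cultures 10, 12 and 16, and 11.8, 9.98 and 11.1 CPM in heterozygous cultures 11, 15 and 18. The CPM groups touched at 11.8, in wild-type culture 10 and heterozygous culture 11. In TPM they were apart, at 5.42, 6.33 and 6.22 in wild-type and 5.04, 4.77 and 4.71 in heterozygous cultures. TPM divides by effective length, which was 3612 bases in wild-type culture 10 and 3807 in heterozygous culture 11. The range of Etv1's length, 14.4% of its mean, was the widest of the 10 genes. The ratio was 86.8% (95% interval 72.1% to 104%) at an adjusted p of 0.502 by edgeR. Its estimate was negative under all 21 alternatives tried, from -0.33 to -0.059 on the log2 scale, and counting error alone was 0.739 to 1.102 CPM per culture. Summed over the PEA3 genes, TPM was 62.5, 64.7 and 79.4 in wild-type and 66.9, 67.9 and 68.8 in heterozygous cultures.

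Among the TCF genes, Elk3, encoding a factor that represses until ERK phosphorylates it, measured 110, 109 and 121 CPM across wild-type cultures 10, 12 and 16 and 121, 119 and 109 CPM in heterozygous cultures 11, 15 and 18. Its ratio was 103% with a 95% interval of 92.2% to 114%, and its exons overlap those of Cdk17 on the opposite strand. Elk1, the TCF gene on chromosome X, measured 27.9, 33.1 and 28.8 CPM in wild-type and 31.2, 29.2 and 27.9 CPM in heterozygous cultures, at a ratio of 98.5% (85.4% to 114%). Its exons overlap those of Uxt on the same strand, so its reads may be shared. Elk4 measured 24.4, 18.4 and 27.1 CPM in wild-type and 21.2, 23.5 and 20.8 CPM in heterozygous cultures, with the wild-type values enclosing all the heterozygous ones. Its ratio was 93.8% (75.0% to 117%), and its exons overlap those of Gm29103 on the same strand and Mfsd4a on the opposite one. The values of these 3 genes interleave between the genotypes, and their summed TPM was 97.5, 91.2 and 100.03 in wild-type and 96.7, 93.0 and 88.9 in heterozygous cultures (exact permutation p = 0.4).

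Etv6, the repressor gene at chr6:134035700-134270158 (plus strand), was the gene with an unadjusted p under 0.05. Its exons overlap those of Gm17089 on the opposite strand. It measured 71.8, 76.3 and 86.1 CPM across wild-type cultures 10, 12 and 16, and 82.9, 92.7 and 96.6 CPM in heterozygous cultures 11, 15 and 18. The groups overlapped only through culture 16, which stood above heterozygous culture 11. The log2 difference was 0.22 (SE 0.085, 95% interval 0.019 to 0.41, adjusted p = 0.378 by edgeR). It was 0.16 within cultures 10 to 12 and 0.14 within 15 to 18, and 0.35 in the first registered set against -0.055 in the later pair. Its adjusted p was 0.0159 in the first registered set alone, where genotype and run coincide and 9.83% of all tested genes were called (5.45% higher).

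Gabpa, at chr16:84834925-84863779 (plus strand), was the gene whose CPM groups did not overlap. It measured 66.8, 66.8 and 66.8 CPM across wild-type cultures 10, 12 and 16, and 69.3, 76.9 and 70.7 CPM in heterozygous cultures 11, 15 and 18. The wild-type SD of 0.045 CPM is far below the counting error of 2.17 to 2.47 CPM in each of those cultures, and heterozygous culture 11 lay above them by about that error. The log2 difference was 0.11 (SE 0.059, 95% interval -0.022 to 0.25, adjusted p = 0.471 by edgeR), and 0.067 without heterozygous culture 15. The value was 0.053 within cultures 10 to 12 and 0.14 within 15 to 18. In TPM the groups overlapped, at 26.7, 28.7 and 28.3 in wild-type and 28.6, 32.9 and 30.2 in heterozygous cultures. Exons of Gabpa and Atp5j overlap on opposite strands. The kit in the labels does not mark strand, so reads of such pairs cannot be told apart.

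**Figure D4:**
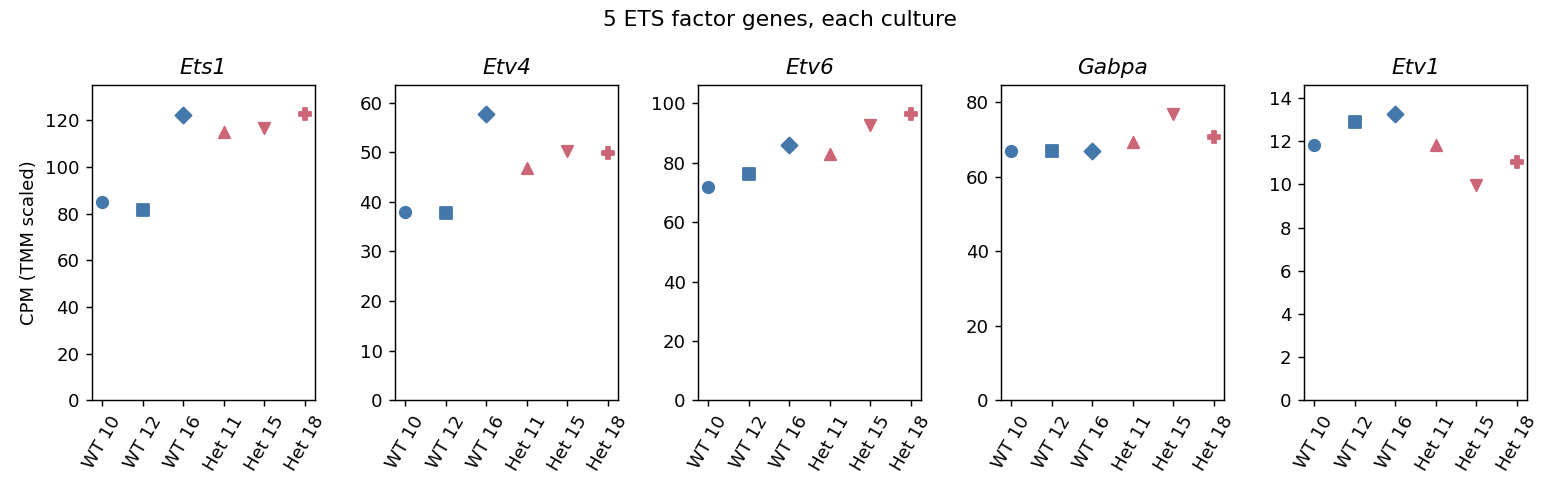
CPM (vertical axis, from 0) of Ets1, Etv4, Etv6, Gabpa and Etv1 in each culture, blue for wild-type and red for heterozygous. Culture 16 stands near or above the heterozygous cultures for Ets1 (122 CPM) and Etv4 (57.8 CPM) and with the other wild-type cultures for Gabpa (66.8 CPM).

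Wild-type cultures 10 and 12, which share a run and a registered set, lay below every heterozygous culture for 4 of the 10 genes. These were Ets1, Etv4, Etv6 and Gabpa, against 21.1% of all tested genes. Wild-type culture 16 was above both other wild-type cultures for 7 of 10, against 39.9%, but for Gabpa and Etv1 by less than the counting error. The summed TPM of the 10 genes was 269.8, 268.7 and 301.0 in wild-type cultures 10, 12 and 16, and 286, 289 and 289 in heterozygous cultures 11, 15 and 18. The difference of 8.30 TPM was smaller than the wild-type SD of 18.4 (exact permutation p = 0.4). It was 18.9 TPM without wild-type culture 16, 2.73 without 12 and 3.28 without 10, and in FPKM the difference was 3.98. The summed level of the fibroblast markers also set culture 16 apart, but as the lowest wild-type culture. It was 31239 CPM in culture 10, 31412 in culture 12 and 25085 in culture 16. Heterozygous cultures 11, 15 and 18 stood at 25058, 27793 and 26427 CPM. Col1a1 was the largest part of this sum, at 11269 CPM in culture 10 and 8753 in culture 16. Vim was instead highest in culture 16 (3628 CPM, beside 3093 in culture 10 and 2894 in culture 12). Thy1 in culture 16 (164.3 CPM) was level with culture 10 (163.6) and above culture 12 (138.0). Of the 10 fibroblast markers 7 had a lower and 3 a higher mean in heterozygous cultures, and 0 passed. An unadjusted p under 0.05 was seen for 4 (all lower, against 6.65% of all tested genes), and the median log2 difference was -0.19. Lum and Dcn, matrix proteoglycan genes, had the most negative log2 differences, -0.79 (SE 0.27, adjusted p = 0.335 by edgeR) and -0.64 (SE 0.22, adjusted p = 0.340 by edgeR). In the later registered pair they were at 0.14 and 0.097. The 3 markers with a higher mean were Vim (0.19), Thy1 (0.15) and Fn1 (0.073). Markers of other cell types differed among the wild-type cultures too. Erythroid markers, with 0 of 6 absent in all cultures, summed to 37.6, 28.1 and 110 CPM across wild-type cultures 10, 12 and 16 and to 51.8, 106 and 121 CPM in heterozygous cultures. Endothelial markers, which matter for Ets1, summed to 25.9, 18.4 and 31.1 CPM in wild-type and 30.8, 40.1 and 32.0 CPM in heterozygous cultures, with 0 of 6 absent in all cultures. Macrophage and blood markers summed to 77.7 to 115 CPM in wild-type and 70.1 to 130 CPM in heterozygous cultures, with 0 of 6 absent. Epithelial markers, with 0 of 5 absent, summed to 90.6 to 155 CPM in wild-type and 82.7 to 205 CPM in heterozygous cultures. Neural and Schwann markers, with 0 of 5 absent, summed to 85.1 to 136 CPM and 133 to 172 CPM. The part of these markers and cells in the ETS levels was not tested.

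The rest of the ETS family gave no call. Of 17 other members 9 were tested, 5 with a higher and 4 with a lower mean and a median log2 difference of 0.073. Erf, a repressor that ERK expels from the nucleus, stood at 56.8 TPM and Elf2 at 40.5 TPM, as high as the abundant listed genes. Fli1 (5.21 TPM) and Erg (6.02 TPM), relatives used by endothelium and blood, were low. Spi1, the myeloid factor, was at 9.83 TPM. Elf4 had the smallest unadjusted p, with 48.0, 39.4 and 40.5 CPM in wild-type and 45.3, 50.2 and 48.9 CPM in heterozygous cultures (log2 difference 0.17, SE 0.090, adjusted p = 0.472 by edgeR). Etv3, another repressor, followed with 25.3, 21.7 and 21.7 CPM against 25.9, 26.1 and 25.0 CPM (0.16, SE 0.088, adjusted p = 0.484 by edgeR). The 8 untested members were at or near 0, with 0 to 26 expected counts over the 6 libraries.

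Of 17 partners and regulators of ETS factors, all tested, 13 were higher and 4 lower in mean, with 0 past the threshold and a median log2 difference of 0.025. Cop1, a ubiquitin ligase that marks PEA3 and ETS proteins for degradation, had the smallest unadjusted p of this list. It measured 101, 96.2 and 104 CPM across wild-type cultures 10, 12 and 16 and 110, 113 and 107 CPM in heterozygous cultures 11, 15 and 18, groups that do not overlap. This held for 1 of the 17 genes, against 17.7% of all tested genes (7.75% higher). The log2 difference of Cop1 was 0.14 (SE 0.053, adjusted p = 0.370 by edgeR). Mrtfb, a coactivator that competes with TCFs for serum response factor, measured 33.7, 36.9 and 31.0 CPM against 36.4, 42.5 and 38.2 CPM (log2 difference 0.20, SE 0.090, adjusted p = 0.423 by edgeR).

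ERK-responsive targets with ETS or TCF control gave 0 calls in the 6 cultures, with culture 16 high for many of them. Of 27 tested genes 20 had a higher mean in heterozygous cultures, 0 passed, 2 had an unadjusted p under 0.05 (both higher, against 5.56% of all tested genes) and the median log2 difference was 0.17, beside -0.0018 over all tested genes. Wild-type cultures 10 and 12 lay below every heterozygous culture for 17 of 27, against 21.1% of all tested genes, but the 2 genotypes were apart for 1 of 27 (higher, against 7.75%). Without culture 16 edgeR called 11 of 27 as higher, against 3.69% of all genes tested in that fit. Wild-type cultures 10 and 12 share a run and a registered set, and the list was chosen with earlier results known. These counts therefore cannot tell genotype from run or set. Dusp4, a phosphatase that switches ERK off, measured 24.4, 23.96 and 38.5 CPM in wild-type and 37.3, 46.6 and 49.3 CPM in heterozygous cultures (log2 difference 0.62, SE 0.19, adjusted p = 0.321 by edgeR). Hmga2, a chromatin protein gene, measured 513, 499 and 751 CPM in wild-type and 759, 807 and 711 CPM in heterozygous cultures (0.37, SE 0.15, adjusted p = 0.390 by edgeR). Within cultures 10 to 12 and 15 to 18 the log2 differences were 0.62 and 0.31 for Dusp4, and 0.59 and 0.013 for Hmga2. In this the 2 genes are not typical of the list. Every target had a positive difference within cultures 10 to 12, but most had a negative one within 15 to 18. For the immediate-early TCF target Fos the values were 310.4, 210.02 and 216 CPM in wild-type and 282, 219 and 131 CPM in heterozygous cultures, an order unlike that of Dusp4.

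**Figure D5:**
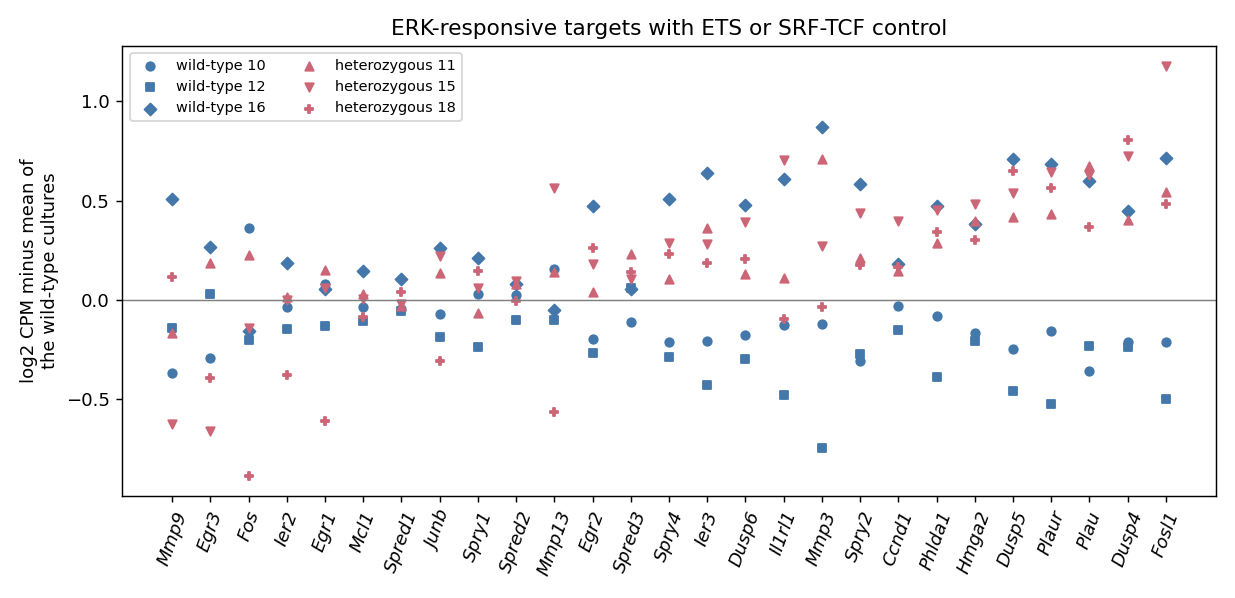
Log2 CPM of 27 ERK-responsive targets minus their wild-type mean (vertical axis), 1 symbol per culture, genes ordered by the genotype difference. For Dusp4, at 38.5 CPM, and Hmga2, at 751 CPM, wild-type culture 16 sits among the heterozygous cultures while cultures 10 and 12 are low.

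Targets of GABPA, 13 tested genes of mitochondria and translation, had 7 higher and 6 lower means, 0 past the threshold and a median log2 difference of 0.014. Atp5b, an ATP synthase subunit gene, measured 1171, 1171 and 1253 CPM in wild-type and 1329, 1374 and 1344 CPM in heterozygous cultures (log2 difference 0.17, SE 0.056, adjusted p = 0.326 by edgeR). Eif4a1, a translation initiation helicase gene, measured 909.8, 891 and 1034 CPM in wild-type and 1073, 1127 and 1076 CPM in heterozygous cultures (0.21, SE 0.071, adjusted p = 0.336 by edgeR). The groups were apart for 4 of the 13, against 17.7% of all tested genes, with Atp5b, Eif4a1 and Eif3a higher and Tfb1m lower. Tfb1m, a gene for a mitochondrial protein, measured 7.26, 5.75 and 5.40 CPM in wild-type and 4.79, 5.17 and 3.90 CPM in heterozygous cultures (-0.41, SE 0.19, adjusted p = 0.432 by edgeR). Tfam, a textbook GABPA target, had a log2 difference of -0.0058 (95% interval -0.16 to 0.15). Of 20 genes of the ERK cascade 12 had a higher and 8 a lower mean, 0 passed and the median was 0.045. Rras, a RAS-family gene, measured 43.7, 43.3 and 47.1 CPM in wild-type and 37.1, 39.9 and 38.4 CPM in heterozygous cultures (-0.22, SE 0.066, adjusted p = 0.317 by edgeR).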

How the data were processed

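Groups came from the sample titles, which number the cultures. Per the file headers, the authors deposited RSEM gene-level tables, and the submitters' processing notes list RSEM 1.3.1, DESeq2 and mm10. The aligner, annotation release and strand setting were not stated. The deposited expected counts are estimated reads per gene. The deposited TPM values are scaled for length and library size, and the deposited FPKM values served 1 alternative. Symbols were matched by Ensembl number (51633 of 51826 genes), and positions are from GENCODE on the same assembly.

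Expected counts were rounded, filtered with filterByExpr, scaled with TMM factors and tested with edgeR 4.0.16 (quasi-likelihood F test, no covariate, R 4.3.3) with Benjamini-Hochberg adjustment over 14652 genes. Alternatives were DESeq2 1.42.0, limma 3.58.1 on log2(TPM + 1), other scalings, filters, covariates and sets of cultures. The confidence level is 95%. TPM ratios used a pseudocount of 1. Counting errors leave out all other error. The edgeR steps were checked on simulated counts with known changes.

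The members and lists were chosen with earlier results of these data known. All 10 genes are named, Lztr1 as the label check, and up to 2 genes per companion list by unadjusted p. A second gene of the ERK cascade list is not reported here. Erf, Elf2, Fli1, Erg, Spi1, Fos, Tfam, Tfb1m, Eif3a, Lum, Dcn and the transcript length comparison were chosen after values were seen. So were Vim, Thy1, Fn1 and Col1a1. Protein sequences were not used here.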

Additional observations from a re-analysis of the deposited data

Results flagged for a closer look

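For 3 genes every heterozygous culture lay on one side of wild-type within cultures 10 to 12 and on the other side within cultures 15 to 18. For Etv4 the log2 differences were 0.31 and -0.21, for Elk3 0.14 and -0.092, and for Etv5 -0.16 and 0.17. The difference between the runs was not tested, and each run holds 3 cultures, so 1 genotype has 1 culture in each.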

How the results depend on the processing

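No paired analysis was possible because the culture numbers differ between the genotypes. Over all genes edgeR called 1 gene, and the count was 32 without a low-count filter, 0 with effective lengths as an offset, 1450 in the first registered set alone, 291 without culture 16 and with the run as a term, 112 by DESeq2 and 0 by limma on TPM. At an unadjusted p under 0.05 the length offset gave 1626 genes and limma 1693. The values within sets, the run term without culture 16 and the length comparison were added after the data were seen. The count of genes called ranged from 0 to 896 when 1 culture was left out, and the 896 came without wild-type culture 16. The 1 gene was Lztr1, which missed the threshold when any culture other than 16 was left out (adjusted p 0.0616 to 0.0759 by edgeR). Those 5 fits had from 909 up to 1862 genes below an unadjusted p of 0.05. Of the 10 ETS genes, 0 were called in the 6 cultures. In the first registered set alone, where genotype and run coincide, 3 were called, against 9.83% of all genes tested there. Without culture 16 and with the run as a term 1 was called, against 1.93%. The count was 0 to 2 when 1 culture was left out, and the 2 came without culture 16, against 5.93%.

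Ets1 passed in the first registered set (log2 difference 0.52, adjusted p = 0.00506 by edgeR), and without culture 16 and with the run as a term (0.47). Etv4 (0.41) and Etv6 (0.35) also passed in the first registered set. With 1 culture left out, Ets1 ranged from 0.20 to 0.51, Etv4 from 0.045 to 0.38, Ets2 from -0.046 to 0.014, Elk1 from -0.069 to 0.063, Elk4 from -0.23 to 0.027, Elk3 from 0.0074 to 0.091, Gabpa from 0.067 to 0.14 and Etv5 from -0.018 to 0.087, where the high values of Ets1 and Etv4 came without culture 16.

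The sign turned within cultures 15 to 18 for Ets1 (-0.029), Ets2 (0.020), Elk3 (-0.092) and Etv4 (-0.21), and within 10 to 12 for Elk1 (0.038), Elk4 (0.0014) and Etv5 (-0.16). In the later pair it turned for Ets1 (-0.088), Ets2 (0.0021), Elk1 (0.12), Elk3 (-0.0074), Etv4 (-0.30), Etv5 (-0.041) and Etv6 (-0.055). In the first set it turned for Elk4 (0.063 from mean log2 CPM, 0.047 by edgeR). Elk1 was 0.013 with the run as a term and 0.040 with that term and without culture 16. Elk3 was -0.0057 with the length offset and -0.026 by limma. Etv5 was -0.0076 by library totals, -0.0027 with the run term, -0.019 with the Y-linked term, -0.16 with the run term without culture 16 and -0.0027 by limma. The cause was not tested. Etv1 and Gabpa held their direction in all 21 alternatives, with Gabpa between 0.052 and 0.15 and at 0.055 with the run term without culture 16.

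With 1 culture left out, the log2 ratio difference ranged from 0.19 to 0.51 for Ets1 to Ets2, from -0.10 to 0.12 for Elk1 to Elk3, from -0.10 to 0.29 for Etv4 to Etv5 and from -0.0057 to 0.11 for Etv6 to Gabpa. Effective length differences ranged from -13.8 to 54.0 bases for Ets1, -74.7 to 13.4 for Ets2, -44.2 to 60.3 for Etv5, -6.93 to 118 for Etv6 and -211 to 10.4 for Gabpa, and from 119 to 189 for Etv4.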
